A study of Homo sapiens with 9 samples.

Results

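SCP51, a human colorectal cancer line grown from 1 cell, was compared with SW480/EGFP, the population from which that cell was taken. The comparison rests on the 3 arrays titled SCP51 and the 3 titled SW480/EGFP (called the parent here), which are 6 of the 9 arrays of the study, and covers all genes that the array annotation names. SW480 is an established colon adenocarcinoma line, and EGFP is the enhanced green fluorescent protein that the parent and its progeny carry. The other 3 arrays measured SCP58, another line grown from 1 cell of the same parent. After surgical implantation at the organ of origin in mice, the labels class SCP51 as having high and SCP58 as having low metastatic potential. All 3 groups were cultured in the same serum-containing medium, and RNA came from cultured cells, not from tumours. SCP51 is 1 clone, so a difference from the parent is a difference of that clone, and the metastatic class cannot be told apart from any other property of it. The labels name 3 biological replicates per group without saying how far apart the cultures were, so each p-value reflects only how these arrays scatter.

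A carcinoma line is a mixed population in which cells differ in chromosome copy number, in the state of their transcription factors and in the signals they make and receive. A line founded by 1 cell starts from the state and the chromosomes of that cell, and its expression can differ from the population average where that cell was not typical. Changes that arose after the founding cannot be told apart from such differences here. The genes that a colorectal cancer cell uses to leave the epithelium and to settle elsewhere include those of cell junctions, matrix and integrins and of the Wnt, TGF-beta, ERK and Hippo (YAP and TEAD) pathways. In whole cultures, fewer cells expressing a gene and less RNA per cell cannot be told apart.

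The values are deposited signals on a linear scale, and array medians lay between 41.2 and 44.3. Signals under the array median are called dim here, because the size of a difference from such a level is uncertain. SCP51 replicate 1 stood apart from the other arrays, with correlations across genes of 0.891 to 0.911 against 0.945 to 0.979 among the other 8 (genes are not independent replicates). Of 10 colorectal epithelial markers, 8 lay above the median on all 9 arrays, among them EPCAM and KRT8, while LGALS4 did so on none. Their summed signal ranged from 18964 to 24515 in SCP51 and from 20019 to 21045 in the parent. Of 9 fibroblast markers 1 lay above the median on all arrays and 5 on none (summed signal 393 to 432 in SCP51, 481 to 517 in the parent). For endothelial markers this was 2 and 1 of 6 (255 to 280 and 272 to 294), and for leukocyte markers 1 and 3 of the 5 measured of 7 (157 to 209 and 170 to 211). No marker was listed at 0.

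Relative to the parent, SCP51 had higher signals for the homeobox gene HOXB8, the guidance factor SEMA3A, the matrix protein THBS1 and the vitamin D inactivating enzyme CYP24A1. It had lower signals for VSNL1, S100A14 and MARCKS and for 59 genes of chromosome 8. A gene was called when its adjusted p (limma, Benjamini-Hochberg over all genes tested) was under 0.05. Of 13586 genes tested, 402 were called (2.96%), 187 of them higher (1.38%) and 215 lower (1.58%) in SCP51. The median log2 difference was 0.96 among the higher and -0.87 among the lower genes. At least 2-fold differences were found in 86 higher and 78 lower genes, and at least 4-fold ones in 19 and 10. In each of the 402 genes the 3 SCP51 arrays lay entirely above or below the 3 parent arrays, which was so for 28.1% of all genes (9.5% higher, 18.5% lower). In 24 called genes SCP51 lay above the array median on all 3 arrays and the parent below it on all 3, and in 18 the reverse was found. These genes were not counted over all genes tested, so the counts have no background to be read against. A gene bright in 1 group only can pass the filter on low signals through that group alone. CCDC144NL-AS1, NLRP4, COL6A3, SMAD7 and PLCB4 passed it through SCP51 only, as did the probe set given for PMEPA1.

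The balance between higher and lower calls depended on the scaling. With the signals as deposited the median gene stood at -0.10, and 46.5% of the calls were higher. After quantile normalization the median was -0.04 and 246 genes were higher and 169 lower (59.3% higher). Centring each array on its 75th percentile gave the same median, -0.04, with 247 higher and 183 lower (57.4%). The median of a gene list is therefore to be read against that of all genes, not against 0. Calls in any list are likewise to be read against 1.38% of all genes called higher and 1.58% called lower. The number of calls rose to 726 without SCP51 replicate 1 and fell to 158 without SCP51 replicate 2, and to 135, 153 and 122 without parent replicates 1, 2 and 3. It was 263 without SCP58 replicate 2, an array that enters only through the shared spread. Without SCP51 replicate 3, 110 genes were higher and 366 lower.

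A gene with several probe sets is given here by the brightest one. When the probe sets of a gene were averaged, calls among the genes described below were lost for HOXB3, NECTIN3, ITGB8, MAP7D3, TIAM1, TGFB2, AXIN2, NRG1, LOXL2, COL6A1, MCAM, PMEPA1, PRKCA, L1CAM, NT5E, MET, DUSP6, FAS, GCLM, PLCG2, CAV2 and ANXA2 of the higher genes. Of the lower genes they were lost for NCOA2, KLF4, PRKCH, VDR, E2F2, PSAT1, PSPH, IRF1 and IL6R. LIF, with 1 probe set, was then at the threshold (adjusted p = 0.05). At least 1 probe set did not share the sign for AXIN2, COL6A1, EFNA5, HAS3, HOXB3, L1CAM, LOXL2, NCOA2, PLCG2 and PRKCA. Among the uncalled HOXB genes this was so for HOXB7 and HOXB9.

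**Figure D1:**
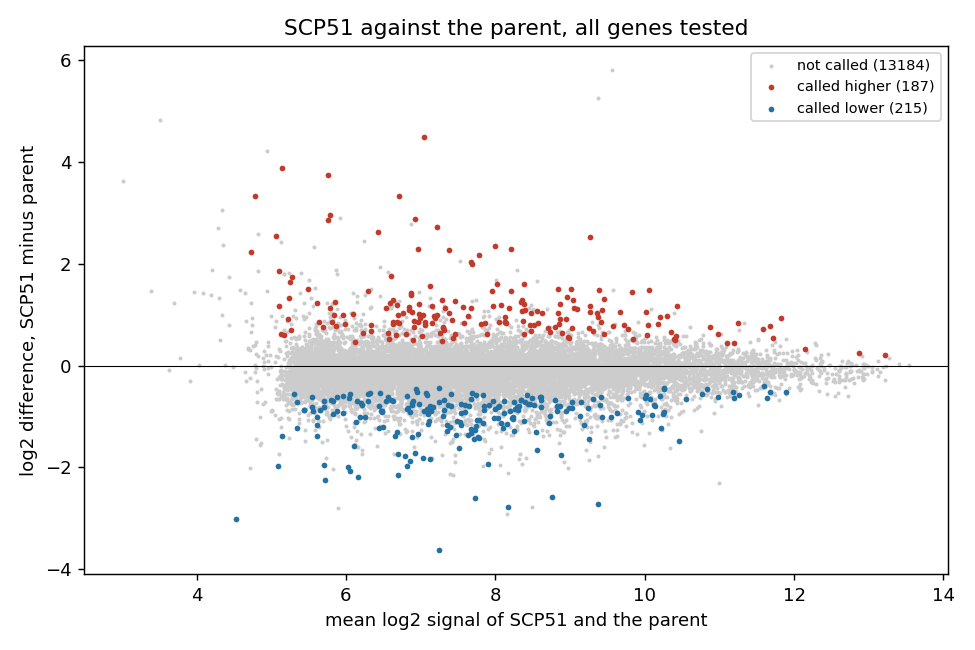
Log2 difference of SCP51 minus the parent (y) against the mean log2 signal of both groups (x), 1 point per gene tested. The 187 genes called higher are red, the 215 called lower blue and the others grey; grey points far from 0, such as KLRF1, are large differences that did not pass the test.

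Of the transcription factors, HOXB8 and GLIS3 were the highest. HOXB8, a homeobox factor of the posterior body axis, had signals of 533, 644 and 722 in SCP51 replicates 1 to 3 and of 22.7, 33 and 29.1 in the parent, with 316, 146 and 138 in SCP58. The parent arrays were all dim and the groups were far apart, with SCP58 between them. HOXB8 was 22.5-fold higher than in the parent (adjusted p = 0.000348), or 3.46 log2 units with 32 added to each signal before log2, and its difference from SCP58 was 1.76 (adjusted p = 0.0215). The comparison with SCP58, in which 4.09% of all genes were called, uses the same SCP51 arrays, so its values are given beside those from the parent and not as a separate test. GLIS3, a zinc finger factor of the GLI family, had signals of 158, 164 and 139 in SCP51 against 13.5, 29.9 and 19 in the parent. The arrays did not overlap, and the 7.75-fold difference (adjusted p = 0.000984) was accompanied by one of 1.45 log2 units from SCP58 (adjusted p = 0.0207).

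The secreted proteins SEMA3A and THBS1 were among the 15 highest genes. SEMA3A, a semaphorin that repels growing axons through neuropilin and plexin receptors, had signals of 225, 474 and 339 in SCP51 and of 45.3, 39.4 and 51.1 in the parent. THBS1, the matrix glycoprotein thrombospondin that can activate latent TGF-beta, had signals of 1064, 1979 and 1544 against 289, 213 and 274. In both genes SCP51 replicate 1 was the lowest of its group and still lay above every parent array. SEMA3A was 7.34-fold higher (adjusted p = 0.00228) and THBS1 5.78-fold higher (adjusted p = 0.00236). SCP58 stood at 41.6, 40.4 and 65.3 for SEMA3A and at 479, 340 and 498 for THBS1, and both genes were higher in SCP51 than there, by 2.79 and 1.78 log2 units (adjusted p = 0.00305 and 0.00902).

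Matrix genes did not all separate SCP51 from SCP58. VCAN, which encodes the hyaluronan-binding proteoglycan versican, had signals of 471, 725 and 560 in SCP51 and of 111, 107 and 122 in the parent. SCP51 was 5.1-fold higher (adjusted p = 0.00648), but SCP58, at 677, 293 and 559, overlapped it, and the difference from SCP58 was 0.26 log2 units (adjusted p = 0.652). NPNT, which encodes nephronectin, a basement membrane ligand of integrins, had signals of 82.9, 90.5 and 70.4 against dim parent values of 12.5, 10.7 and 19.7. It stood 5.85-fold above the parent (adjusted p = 0.00314) and 0.81 log2 units above SCP58 (adjusted p = 0.133). DMP1, a phosphoprotein of bone and dentin matrix, had signals of 83.5, 101 and 79 against 7.29, 11.5 and 7.88. Its difference was 3.33 ± 0.69 log2 units (SE, 3 arrays a group; adjusted p = 0.0443), and 1 SCP58 array stood at 57.9 while the others were at 10 and 6.36. The DMP1 call was lost (adjusted p from 0.0606 to 0.151) without SCP51 replicates 2 or 3, any parent array or SCP58 replicate 1.

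On the cell surface, EFNA5, ITGB8 and NECTIN3 were higher. EFNA5, a membrane-anchored ephrin that binds Eph receptors on neighbouring cells, had signals of 124, 164 and 155 in SCP51 and dim ones of 16.2, 24 and 21.1 in the parent. The groups did not overlap and EFNA5 was 7.27-fold higher (adjusted p = 0.000348), and 2.82 log2 units higher without SCP51 replicate 3 (adjusted p = 0.00147). Its 3 probe sets differed: 1 did not share the sign, their mean stood at 1.65 (adjusted p = 0.000743), and the one that was brightest without SCP51 replicate 3 stood at 0.08 (adjusted p = 0.853). ITGB8, an integrin subunit that binds latent TGF-beta, had signals of 130, 233 and 319 against 44.8, 22.7 and 41.8, a 6.11-fold difference (adjusted p = 0.0114, and 0.0503 without SCP51 replicate 2). The mean of its probe sets stood at 1.33 (adjusted p = 0.0565), against 2.61 for the one given. SCP58 lay between, at 91.1, 64.3 and 117. NECTIN3, an adhesion molecule of adherens junctions, had signals of 302, 592 and 576 against 138, 73 and 111. It was 4.52-fold higher (adjusted p = 0.0175), a call lost without SCP51 replicate 2, parent replicate 2 or parent replicate 3 (adjusted p from 0.0688 to 0.0713).

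Inside the cell, CYP24A1, INPP4B, DCLK1 and PALS1 were higher. CYP24A1, the enzyme that inactivates vitamin D hormone and is itself a target of the vitamin D receptor, had signals of 280, 393 and 330 in SCP51 and dim signals of 37.6, 24.8 and 38.4 in the parent. It was 10.1-fold higher (adjusted p = 0.000852) and also 2.93 log2 units above SCP58, whose signals were 57.1, 29.2 and 49.8. INPP4B, a phosphatase of phosphoinositide lipids, had signals of 288, 294 and 254 against 47.4, 58.9 and 65 (4.91-fold; adjusted p = 0.000348). The kinase DCLK1, a marker of tuft cells and of some tumour-initiating cells of the intestine, had signals of 377, 376 and 341 against 77.1, 64.6 and 86.8 (4.82-fold; adjusted p = 0.000348). PALS1, a scaffold of the Crumbs polarity complex, had signals of 385, 456 and 399 against 92.4, 111 and 101 (4.08-fold; adjusted p = 0.000357). For INPP4B and DCLK1 the SCP58 arrays, at 133 to 161 and 122 to 167, lay between the other groups. For PALS1 they lay at 313 to 414, and SCP51 was only 0.22 log2 units above them (adjusted p = 0.426).

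The other genes among the 15 highest have varied roles. The antisense transcript CCDC144NL-AS1 had signals of 236, 171 and 192 in SCP51 and of 12.4, 16.2 and 16.2 in the parent, 13.4-fold higher with the smallest adjusted p of the comparison (9.02e-05). SCP58 was as dim as the parent, at 12.7, 14.1 and 13.8. NLRP4, of the NOD-like receptor family, had signals of 54, 245 and 188 against 7.56, 8.76 and 12.1, which is 3.87 ± 0.54 log2 units (adjusted p = 0.00916) or 2.07 with 32 added. AOPEP, an aminopeptidase, was 4.89-fold higher (adjusted p = 0.0033). MAP7D3, a microtubule-associated protein, was 6.62-fold higher (adjusted p = 0.0474), but 1 SCP58 array, at 296, was also far above the 2 others, and the call was lost without SCP51 replicates 2 or 3, any parent array or SCP58 replicate 3 (adjusted p from 0.0657 to 0.153). The mean of its probe sets stood at 1.38 (adjusted p = 0.0749), against 2.73 for the one given. Over the 15 highest genes the difference was 2.29 to 4.49 log2 units, 8 were dim on the parent arrays, and with 32 added the range was 1.29 to 3.46.

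**Figure D2:**
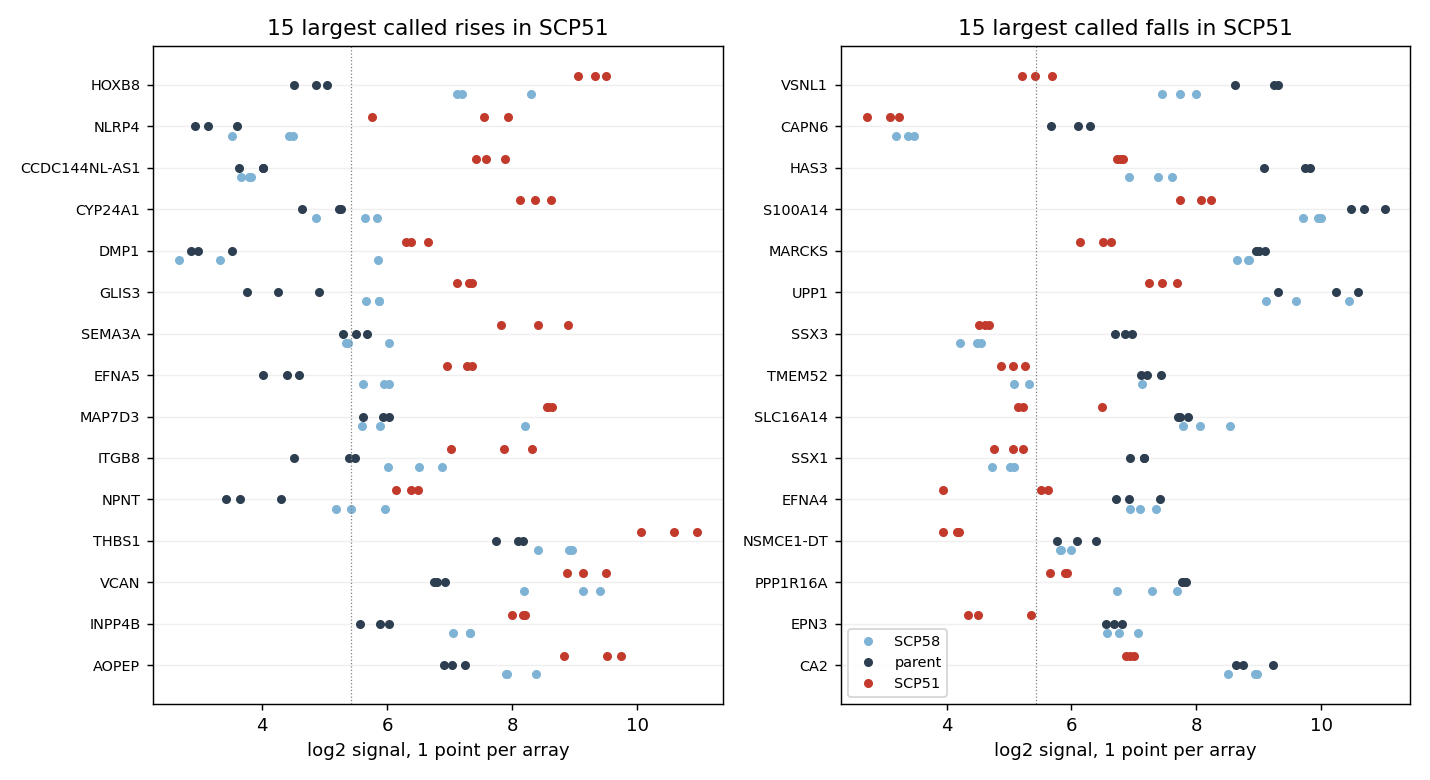
Log2 signal of each array (x) for the 15 called genes with the largest rise (left) and the largest fall (right) in SCP51; SCP51 is red, the parent dark and SCP58 light blue, and the dotted line marks the mean of the array medians. The SCP51 points lie apart from the parent points in all 30 genes, while SCP58 lies with the parent in some (CCDC144NL-AS1, SEMA3A, MARCKS) and with SCP51 in others (VCAN, CAPN6, SSX1, SSX3).

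VSNL1, S100A14 and MARCKS were among the 15 lowest genes. VSNL1, a calcium sensor of the visinin family best known from neurons, had signals of 36.8, 42.9 and 51.4 in SCP51 and of 637, 392 and 609 in the parent. S100A14, a calcium-binding protein of epithelia, had signals of 302, 215 and 270 against 1434, 2075 and 1653. MARCKS, a protein kinase C substrate that holds actin and phosphoinositides at the membrane, had signals of 90.5, 99.3 and 70.1 against 495, 517 and 550. The log2 differences were -3.62, -2.71 and -2.60, each with an adjusted p of 0.000348. SCP58 lay closer to the parent in all 3 genes, at 175 to 256 for VSNL1, 837 to 1021 for S100A14 and 405 to 462 for MARCKS. The adjusted p of SCP51 against SCP58 was 0.00305, 0.00305 and 0.000543.

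Also among the 15 lowest were HAS3, UPP1, CA2 and SLC16A14. HAS3, a hyaluronan synthase, had signals of 106, 110 and 114 in SCP51 and of 906, 546 and 861 in the parent (-2.78; adjusted p = 0.000852). SCP58, at 196, 121 and 167, was likewise lower, and the difference between the clones was -0.53 log2 units (adjusted p = 0.235); 1 of the 2 HAS3 probe sets does not share the sign, and their mean stood at -1.26. UPP1, a uridine phosphorylase, had signals of 151, 176 and 208 against 637, 1546 and 1212 (-2.58; adjusted p = 0.0129), with the call lost without SCP51 replicate 2, parent replicate 2 or parent replicate 3 (0.0529 to 0.0677). CA2, carbonic anhydrase 2 of absorptive colon cells, had signals of 117, 129 and 123 against 397, 599 and 429 (-1.93; adjusted p = 0.00227), and SCP58 lay with the parent at 363 to 502. The monocarboxylate transporter gene SLC16A14 stood at -2.15 (adjusted p = 0.0164, and 0.0641 to 0.0715 without SCP51 replicate 2 or any parent array).

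Some of the lowest genes were low in both clones. CAPN6, a calpain-family protein, had signals of 8.54, 9.46 and 6.6 in SCP51 and of 10.4, 9.17 and 11.1 in SCP58, against 69, 51 and 78.4 in the parent. The cancer-testis antigen SSX1 had signals of 37.3, 27 and 33.6 in SCP51 and 33.7, 32.3 and 26.4 in SCP58, against 144, 143 and 123. SSX3 had 24.4, 23 and 25.6, then 23.4, 22.5 and 18.5, against 116, 126 and 104. The log2 differences from the parent were -3.01, -2.08 and -2.25 (adjusted p = 0.000455, 0.000479 and 0.000348), while those from SCP58 were -0.33, 0.08 and 0.19 (adjusted p = 0.43, 0.813 and 0.472). SSX genes are similar in sequence, so which of them gave the signal is uncertain. Another probe set of CAPN6, brighter over all 9 arrays but removed by the filter on low signals, stood at -0.21 (adjusted p = 0.486). CAPN6, SSX1 and SSX3 lay above the array median on the 3 parent arrays only, so they passed that filter only through the group where they are high. The ephrin EFNA4 stood at -1.99 ± 0.41 log2 units (adjusted p = 0.0445), lost without any 1 parent or SCP58 array (0.0684 to 0.151). TMEM52 stood at -2.18 (adjusted p = 0.0472), lost without SCP51 replicates 2 or 3, any parent array or SCP58 replicate 3 (0.0657 to 0.152). The endocytic adaptor EPN3, the phosphatase subunit PPP1R16A and the divergent transcript NSMCE1-DT stood at -1.95, -1.97 and -1.98. They kept their calls in each alternative run that tested them, and a stricter filter left out NSMCE1-DT. Unlike CAPN6 and the SSX genes, EFNA4, EPN3 and NSMCE1-DT were low in SCP51 only. Their geometric mean signals were 140, 111 and 58.9 in SCP58 against 129, 103 and 67.8 in the parent. For PPP1R16A and TMEM52 SCP58 lay between the other groups, at 151 and 57.3. Over the 15 lowest genes the difference ran from -3.62 to -1.93, with 6 dim in SCP51 and a range of -2.91 to -1.02 with 32 added.

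HOXB8 was not the only higher HOXB gene. The HOXB genes are a cluster of homeobox factors that lie side by side on chromosome 17 and set position along the body axis. Of 19 HOX genes tested 4 were called higher and none lower, against 1.38% and 1.58% of all genes. All 4 lie in this cluster (HOXB3, HOXB4, HOXB6 and HOXB8), while the median of the 19 was -0.06 against -0.10 over all genes. HOXB3 had signals of 428, 407 and 396 in SCP51 and of 88, 118 and 105 in the parent, a 3.99-fold difference (adjusted p = 0.000348). HOXB6 had 573, 347 and 460 against 145, 122 and 188 (adjusted p = 0.00977), and HOXB4 had 93.6, 85.8 and 87.9 against dim signals of 40.7, 36.8 and 35.4 (adjusted p = 0.00385). The groups did not overlap in these genes, and the SCP58 arrays stood between them, at 266 to 310 for HOXB3, 200 to 260 for HOXB6 and 48.4 to 67.9 for HOXB4.

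Not every gene of the cluster followed. HOXB9 stood at 0.66 (adjusted p = 0.0533) and HOXB2 at 0.57 (adjusted p = 0.0682), short of the threshold. With 1 array left out, the adjusted p of HOXB9 ran from 0.0324 (without SCP58 replicate 1) to 0.199. That of HOXB2 ran from 0.0356 (without SCP58 replicate 3) to 0.222. Of the 2 HOXB9 probe sets 1 did not share the sign, and their mean was 0.31 (adjusted p = 0.157). HOXB7, the brightest, had signals of 852, 876 and 1069 against 778, 730 and 686 (0.34; adjusted p = 0.365). HOXB5 had signals of 39, 349 and 390 in SCP51, so that replicate 1 lay below and the others above the parent, at 134, 138 and 170. HOXB5 stood at 0.25 (adjusted p = 0.876), and at 1.33 (adjusted p = 0.0105) without replicate 1. HOXB1 and HOXB13 stood at -0.18 and -0.11. For HOXB3 1 of 2 probe sets did not share the sign, and the mean of both was 0.72 (adjusted p = 0.0817). The mean for HOXB6 was 0.81 (adjusted p = 0.0262).

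**Figure D3:**
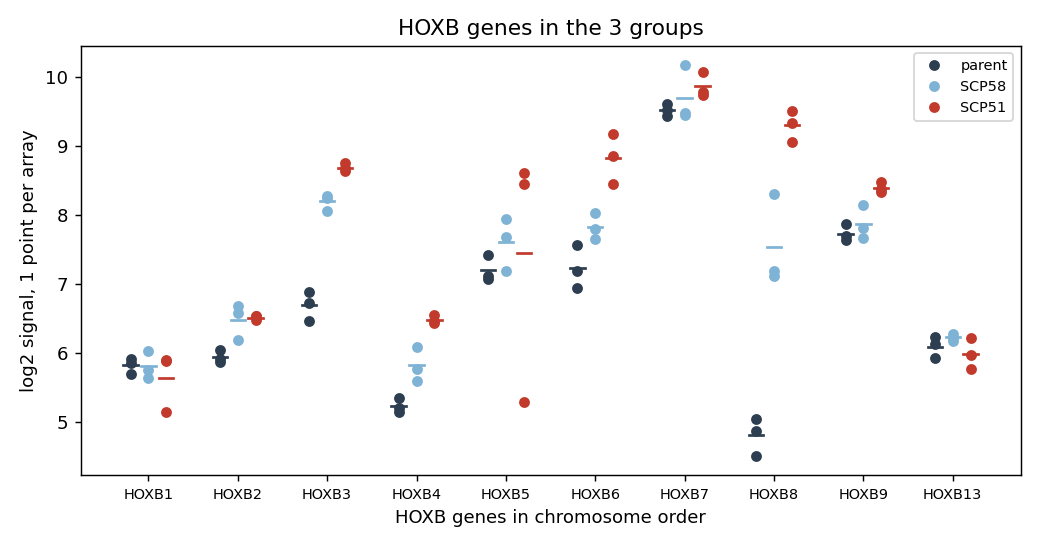
Log2 signal of each array (points) and the group mean (bars) for 10 HOXB genes in their order on chromosome 17, for the parent, SCP58 and SCP51. HOXB3, HOXB4, HOXB6 and HOXB8 are above the parent on all SCP51 arrays with an adjusted p under 0.05, and 1 SCP51 array of HOXB5 falls far below the other 2.

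Of 30 transcription factors and structural genes of the epithelial to mesenchymal transition, 6 were called higher and 1 lower, with a median of 0.07. Over all genes 1.38% were called higher and 1.58% lower. THBS1 was described above; COL6A3, a collagen VI chain, had signals of 52.2, 62.9 and 57.4 in SCP51 and dim ones of 14.4, 9.88 and 13.1 in the parent (4.66-fold; adjusted p = 0.00067). COL6A1, another chain of the same collagen, was 1.81-fold higher (adjusted p = 0.00419), although 2 of its 4 probe sets did not share the sign and their mean stood at 0.06. LOXL2, FSTL1 and NT5E stood at 1.03, 0.83 and 0.77. Their calls were lost without SCP51 replicate 2 or parent replicates 1 or 3 (0.0507 to 0.184), and each also without 1 or more other arrays. TWIST1, a factor that represses epithelial genes, was the one lower member, at 61.4, 64.3 and 70.1 against 138, 108 and 124 (-0.91; adjusted p = 0.0144; 0.0592 to 0.0713 without SCP51 replicate 2, parent replicate 1 or parent replicate 3). ZEB1, VIM and CDH1 were not called, at 0.20, 0.80 and -0.19 (adjusted p = 0.359, 0.0776 and 0.667), but VIM passed without SCP51 replicate 1 (0.95; adjusted p = 0.0278). With another single array left out the adjusted p of VIM rose to as much as 0.241.

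The 41 junction and polarity genes had a median of -0.19, or -0.08 without SCP51 replicate 1 (-0.10 and -0.05 over all genes). Of these 41, 1 was called higher (PALS1) and 3 lower, against 1.38% and 1.58% of all genes. The lower ones were GRHL2, a transcription factor of epithelial identity, ESRP1, an epithelial splicing regulator, and OVOL1, a zinc finger factor. GRHL2 had signals of 115, 101 and 100 against 277, 244 and 251 (-1.29; adjusted p = 0.00227), ESRP1 530, 367 and 303 against 784, 906 and 927 (-1.16; adjusted p = 0.0235; 0.0697 to 0.106 without SCP51 replicate 2 or any parent array). OVOL1 stood at -0.65 (adjusted p = 0.0142, and 0.054 to 0.0746 without SCP51 replicate 2 or any parent array). GRHL2 and ESRP1 lie on chromosome 8, described below, and without the genes of that chromosome the list had 1 higher and 1 lower call. Of 8 keratin genes none was called (median 0.14): KRT8 had 5949, 6487 and 5758 in SCP51 and 5115, 5044 and 5323 in the parent, and KRT18 stood at 0.08. KRT23, with 294, 410 and 436 against 146, 91.4 and 56.5, was the highest of them but missed the threshold (2.04; adjusted p = 0.0574; 0.036 without SCP51 replicate 1 and 0.0288 without SCP58 replicate 2). With another single array left out its adjusted p rose to as much as 0.19. Of 20 intestinal transcription factors KLF4, a differentiation factor, was the 1 called gene, at -1.40 (adjusted p = 0.0373); it lost its call without SCP51 replicates 2 or 3, parent replicate 3 or any SCP58 array (0.0599 to 0.127). Of 12 enterocyte and goblet cell genes only CA2 was called.

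The matrix and adhesion lists are read against 1.38% of all genes called higher and 1.58% lower. Of 25 basement membrane and matrix genes 3 were higher and 1 lower (median 0.19), and of 29 integrin and focal adhesion genes 1 was higher, ITGB8, and none lower (median 0.09). LAMA5, a laminin chain, had signals of 669, 644 and 719 in SCP51 and of 352, 349 and 377 in the parent (1.88-fold; adjusted p = 0.0143, and 0.0629 to 0.0666 without any 1 parent array). Syndecan SDC1 was lower, at -0.79 (adjusted p = 0.0395); the call was lost (0.0528 to 0.131) when SCP51 replicate 2, any parent array or SCP58 replicates 2 or 3 were left out. Of 27 cadherins and other adhesion molecules 4 were higher and 1 lower (median -0.11). Beside NECTIN3 these included MCAM, an immunoglobulin-family adhesion molecule, at 260, 246 and 263 against 132, 152 and 150 (1.78-fold; adjusted p = 0.00735), while the mean of its probe sets was 0.43 log2 units (adjusted p = 0.0895) against 0.83. L1CAM, a neural adhesion molecule studied in colorectal invasion, was 1.71-fold higher (adjusted p = 0.0211), lost without SCP51 replicate 2 or any parent array (0.0663 to 0.0963), and its remaining probe set pointed the other way (mean 0.35). Of 38 proteases and their inhibitors none was called by limma (median -0.07); ADAM9 and TIMP1, the brightest, stood at 0.52 and 0.20 (adjusted p = 0.201 and 0.324). Hyaluronan genes (14 tested) had 1 higher call, VCAN, and 1 lower, HAS3.

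YAP and its relative TAZ (gene WWTR1) are co-activators that drive growth and matrix genes through TEAD factors when the Hippo kinases are inactive. Of 31 YAP and TEAD genes 6 were called higher and 1 lower in SCP51, against 1.38% and 1.58% of all genes. Their median was 0.25 against -0.10 over all genes (0.31 against -0.04 after either rescaling). TGFB2, a TGF-beta ligand, had signals of 84.9, 168 and 156 in SCP51 and of 56, 44.7 and 42.9 in the parent (2.74-fold; adjusted p = 0.0197). CRIM1, a binder of bone morphogenetic proteins, had 1016, 1187 and 1110 against 465, 376 and 499 (2.48-fold; adjusted p = 0.00388). CCN2, a matricellular protein and standard YAP target, had 462, 578 and 448 against 183, 309 and 216 (1.10 log2 units; adjusted p = 0.0395; 0.0524 to 0.15 without SCP51 replicates 2 or 3, parent replicates 1 or 3, SCP58 replicate 2 or SCP58 replicate 3). In all 3 genes the SCP51 arrays lay above every parent array. WWTR1, NT5E and the caveolin gene CAV2 stood at 0.73, 0.77 and 0.50, and the factor TEAD3 at -0.92 (adjusted p = 0.0143). CCN1, TEAD1 and YAP1 were not called, at 0.80, 0.66 and -0.10 (adjusted p = 0.107, 0.0519 and 0.686), but without SCP51 replicate 1 CCN1 and TEAD1 passed (0.00598 and 0.0377), as TEAD1 did without SCP58 replicate 2 (0.0435). With another single array left out the adjusted p rose to as much as 0.287 for CCN1 and 0.18 for TEAD1. The WWTR1 call was lost without any 1 array (0.0525 to 0.165) and that of NT5E without any but SCP51 replicate 1 (0.0507 to 0.147). TGFB2 and CAV2 lost their calls without SCP51 replicate 2 (and without parent replicates 1, 2 or 3 for TGFB2, 1 or 3 for CAV2), with adjusted p from 0.0544 to 0.0932, and TEAD3 without any 1 parent array (0.0585 to 0.074).

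As a description of the promoters of these genes, the 250 bases before the start site were searched on both strands for GGAATG, a core of the TEAD motif. The sequences are from RefSeq on GRCh38.p14, the motif is in capitals, and each is printed in the direction of the gene. The promoter of CCN2, on the minus strand at chr6:131951373-131951622, holds 3 copies, which begin 169, 104 and 95 bases before the start site. That of TGFB2, on the plus strand at chr1:218345086-218345335, holds 1 copy on the opposite strand, 185 bases before it.
CCN2: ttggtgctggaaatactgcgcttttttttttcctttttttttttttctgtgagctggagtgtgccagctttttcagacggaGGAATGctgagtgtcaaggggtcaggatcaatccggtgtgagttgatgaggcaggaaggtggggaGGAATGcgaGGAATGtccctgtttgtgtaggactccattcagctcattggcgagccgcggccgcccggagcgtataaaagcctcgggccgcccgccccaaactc
TGFB2: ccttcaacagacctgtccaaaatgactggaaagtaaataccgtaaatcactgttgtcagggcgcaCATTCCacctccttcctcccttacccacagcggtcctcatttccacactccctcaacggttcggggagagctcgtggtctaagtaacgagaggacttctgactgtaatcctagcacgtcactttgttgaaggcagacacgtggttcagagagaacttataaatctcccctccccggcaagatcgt
Of the 7 called genes of the list 6 were in the promoter table, and these are the 2 with a match. Over the tested genes of the list 7 of 30 promoters held the motif (23.3%), over the genes called higher 10.6%, over those called lower 10.8% and over all 35116 promoters 11.9%. A match is a string of letters and was not tested as a binding site.

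In the TGF-beta and BMP list (38 genes) 4 were called higher and 1 lower, against 1.38% and 1.58% of all genes, with a median of -0.05 (0.03 after quantile normalization). The receptor TGFBR2 had signals of 450, 576 and 517 in SCP51 and of 253, 226 and 270 in the parent (2.05-fold; adjusted p = 0.00717). The inhibitor SMAD7, a feedback target of the pathway, had 49.3, 50.8 and 55.4 against dim signals of 20.3, 27.4 and 21.9 (2.25-fold; adjusted p = 0.008). PMEPA1, another inhibitor and target, stood at 0.85, and the type I receptor ACVR1 at -0.55 (adjusted p = 0.0232 and 0.0398). SMAD7 and the given PMEPA1 probe set passed the filter on low signals through SCP51 only. With that probe set held, the PMEPA1 call was lost without SCP51 replicates 2 or 3 or any parent array (0.0524 to 0.0963). Without SCP51 replicate 1 another PMEPA1 probe set was taken, which stood at 0.31 and was not called. The ACVR1 call was lost without any 1 array (0.0529 to 0.166). The mean of the TGFBR2 probe sets was 0.61 (adjusted p = 0.0326). Both the ligand TGFB2 and the receptor TGFBR2 were thus higher.

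Wnt, growth factor and ERK genes changed in single members. Of 33 Wnt genes 2 were higher and 2 lower, against 1.38% and 1.58% of all genes (median -0.12). AXIN2, a feedback inhibitor and direct target of beta-catenin, had signals of 238, 355 and 238 in SCP51 and of 99, 136 and 109 in the parent (2.4-fold; adjusted p = 0.0109, but 0.054 without parent replicate 1 and 0.0611 without parent replicate 3). Of its 3 probe sets 1 did not share the sign, and their mean stood at 0.52 (adjusted p = 0.0561) against 1.26 for the one given. DKK1, a secreted inhibitor of Wnt receptors, had 4617, 5363 and 5185 against 3004, 2256 and 2680 (1.92-fold; adjusted p = 0.00501). The receptor FZD3 fell to 44.5, 70.8 and 109 from 253, 231 and 253 (-1.81, adjusted p = 0.0123). Its adjusted p was 0.05 to 0.062 without SCP51 replicate 2 or any parent array, and the mean of its probe sets stood at -0.84. BAMBI, a decoy receptor for ligands of the TGF-beta family, fell to 116, 130 and 131 from 200, 248 and 203 (-0.78, adjusted p = 0.0114). SCP58 was lower still for BAMBI, at 98.2, 99.1 and 101. Stem cell and tumour-initiating markers (16 tested) had 1 higher call, DCLK1, and 2 lower, KLF4 and LRIG1, an ERBB inhibitor at -0.82 (adjusted p = 0.0407; 0.0558 to 0.156 without SCP51 replicates 2 or 3, any parent array, SCP58 replicate 1 or SCP58 replicate 2).

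Of 37 growth factor ligands and receptors 2 were called higher and none lower, against 1.38% and 1.58% of all genes (median 0.17). PDGFC, a platelet-derived growth factor, had signals of 1308, 2319 and 1852 in SCP51 and of 666, 606 and 639 in the parent, 2.79-fold higher (adjusted p = 0.0105; 0.0509 and 0.0518 without parent replicates 2 and 3). MET, the receptor of hepatocyte growth factor, had 1061, 1252 and 1072 against 698, 663 and 681 (1.65-fold; adjusted p = 0.0336), a call lost without SCP51 replicates 2 or 3 or any parent array (0.0506 to 0.124). In the ERBB list (11 genes) the ligand NRG1 was higher and LRIG1 lower; NRG1 stood at 1.15 (adjusted p = 0.0418; mean of its probe sets 0.43), lost without 7 of the 9 arrays (all but SCP51 replicate 1 and SCP58 replicate 1; 0.065 to 0.115). Of 29 ERK feedback genes 1 was higher, the phosphatase DUSP6, at 3891, 4129 and 3772 against 2474, 2063 and 2649 (1.65-fold; adjusted p = 0.0372). Its call was lost without SCP51 replicates 2 or 3, any parent array or SCP58 replicate 3 (0.0541 to 0.125). EGFR stood at 0.50 (adjusted p = 0.105). Of 22 Notch genes the co-activator MAML2 was called higher, at 0.81 (adjusted p = 0.0472; 0.0578 to 0.158 without SCP51 replicates 1 or 2, any parent array, SCP58 replicate 1 or SCP58 replicate 2).

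Of 21 genes known from colorectal metastasis 3 were called higher and none lower, against 1.38% and 1.58% of all genes (median 0.05). The 3 were TIAM1, MET and L1CAM. TIAM1, named for its part in the invasion of T lymphoma cells, had signals of 900, 755 and 671 in SCP51 and of 206, 313 and 311 in the parent (2.83-fold; adjusted p = 0.0117). The mean of its 2 probe sets stood at 0.82 on the log2 scale (adjusted p = 0.0657). Those of MET and L1CAM stood at 0.67 and 0.35 (adjusted p = 0.111 and 0.209), so all 3 calls were lost on averaging. The TIAM1 call was also lost when a block for the replicate number was added to the fit. SCP58, at 769, 544 and 813, overlapped SCP51.

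The signalling and guidance lists here are read against 1.38% of all genes called higher and 1.58% lower. Of 34 genes of MARCKS, protein kinase C and phosphoinositides 4 were higher and 2 lower (median -0.06). With INPP4B, the higher ones were PLCB4, PRKCA and PLCG2, at 0.92, 0.83 and 0.55, which encode phospholipases and protein kinase C alpha. Each of these 3 calls was lost without SCP51 replicates 2 or 3 or any parent array (0.0544 to 0.161). That of PLCG2 was also lost without SCP58 replicates 2 or 3, and the probe set means of PRKCA and PLCG2 were 0.29 and 0.07. PLCB4 passed the filter on low signals through SCP51 only, so its values without an SCP51 array are with the probe set held. With MARCKS, the lower one was PRKCH, protein kinase C eta, at -1.10 (adjusted p = 0.0181; 0.065 to 0.0883 without SCP51 replicate 2, parent replicate 2 or parent replicate 3). Of 20 S100 proteins and annexins S100A14 was lower and ANXA6 and ANXA2 higher, at 0.79 and 0.24 (adjusted p = 0.0177 and 0.0183). Both annexins lost their calls without SCP51 replicate 2 or any parent array (0.0542 to 0.0963). Of 24 calcium sensors VSNL1 alone was called. Of 26 semaphorins, plexins and neuropilins SEMA3A was the 1 called gene (median 0.04), and of 27 other guidance genes EFNA5 was higher and EFNA4 lower. In the vitamin D list (18 genes, median -0.20) CYP24A1 was higher while the receptor VDR was lower, at 155, 174 and 184 against 288, 362 and 295 (-0.88; adjusted p = 0.0164; 0.054 to 0.0656 without SCP51 replicate 2 or any parent array). The co-activator NCOA2 stood at -1.39 (adjusted p = 0.00825), lies on chromosome 8, and its remaining probe set pointed the other way.

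Metabolic and proliferation lists had few calls, and several lay slightly below the median of all genes. Over all genes 1.38% were called higher and 1.58% lower. Of 40 ribosomal protein genes none was called, and all 40 stood below 0 with a median of -0.24 (-0.15 and -0.19 after quantile normalization and centring); without SCP51 replicate 1, the array that stood apart, the median was -0.07 against -0.05 over all genes. Of 45 DNA replication genes 43 stood below 0 (median -0.23, or -0.12 without that array) and 1 was called, the factor E2F2, at -0.80 (adjusted p = 0.0489; 0.0743 to 0.161 without SCP51 replicate 2, any parent array or any SCP58 array). Of 38 mitosis genes none was called (median -0.07). Oxidative phosphorylation had 3 lower calls of 38 (COX6C, CYC1 and UQCRB; median -0.33, or -0.15 without SCP51 replicate 1), and all 3 genes lie on chromosome 8. UQCRB had signals of 1664, 1892 and 2090 in SCP51 and of 2910, 2770 and 3115 in the parent. The adjusted p values of UQCRB, CYC1 and COX6C were 0.0117, 0.0109 and 0.0249, and without parent replicates 1 or 3 none of them was called (from 0.054 to 0.114); COX6C also needed SCP51 replicate 2, parent replicate 2 and SCP58 replicates 2 and 3 for its call (0.051 to 0.088). Of 33 genes of the unfolded protein and ATF4 response 2 were lower, the serine synthesis enzymes PSAT1 and PSPH, at -0.62 and -0.61. PSAT1 had 1563, 1699 and 1654 against 2480, 2691 and 2399 (adjusted p = 0.0103), and PSPH lost its call (adjusted p = 0.0494; 0.0575 to 0.166) in all leave-one-out fits but that without SCP58 replicate 1. Of 38 hypoxia and glycolysis genes SLC16A14 was the 1 called (median 0.00). Cholesterol and fatty acid synthesis (30 genes, median -0.06) had 1 call each way. TM7SF2, a sterol reductase, was 1.95-fold higher (adjusted p = 0.0235; 0.0878 to 0.0993 without SCP51 replicate 2, parent replicate 1 or parent replicate 2), and the fatty acid activating enzyme ACSL5 stood at -1.17 (adjusted p = 0.0164; 0.0721 and 0.0746 without parent replicates 1 or 3). Of 35 xenobiotic and antioxidant enzymes UPP1 was lower and GCLM, a subunit of the enzyme that starts glutathione synthesis, higher at 0.60 (adjusted p = 0.0489; 0.0633 to 0.184 without any 1 array other than SCP51 replicate 1).

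Immune signalling and stress lists had few calls, to be read against 1.38% of all genes called higher and 1.58% lower. Of 33 interferon response and MHC class I genes 1 was lower, the factor IRF1, at -0.58 (median -0.23; adjusted p = 0.0344). Of 30 chemokine, cytokine and NF-kB genes the cytokine LIF was higher and the receptor IL6R lower, at 0.86 and -0.55 (median -0.02; adjusted p = 0.0458 and 0.043). Of 27 p53 targets and cell cycle inhibitors the death receptor FAS was higher, at 270, 306 and 302 against 183, 195 and 194 (adjusted p = 0.0378). The median of these 27 was -0.22, or 0.00 without SCP51 replicate 1, against -0.10 and -0.05 over all genes. With its probe set held, the IL6R call was lost without any 1 array other than SCP58 replicate 1 (0.0573 to 0.126). Where another probe set could be taken, it was lost in all 9 leave-one-out fits (up to 0.342). IRF1 and FAS lost theirs without SCP51 replicates 2 or 3, any parent array, SCP58 replicate 2 or SCP58 replicate 3 (0.061 to 0.147), and LIF without SCP51 replicates 2 or 3, any parent array or SCP58 replicate 3 (0.0756 to 0.151). Of 12 cancer-testis antigens SSX1 and SSX3 were lower and none was higher.

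**Figure D4:**
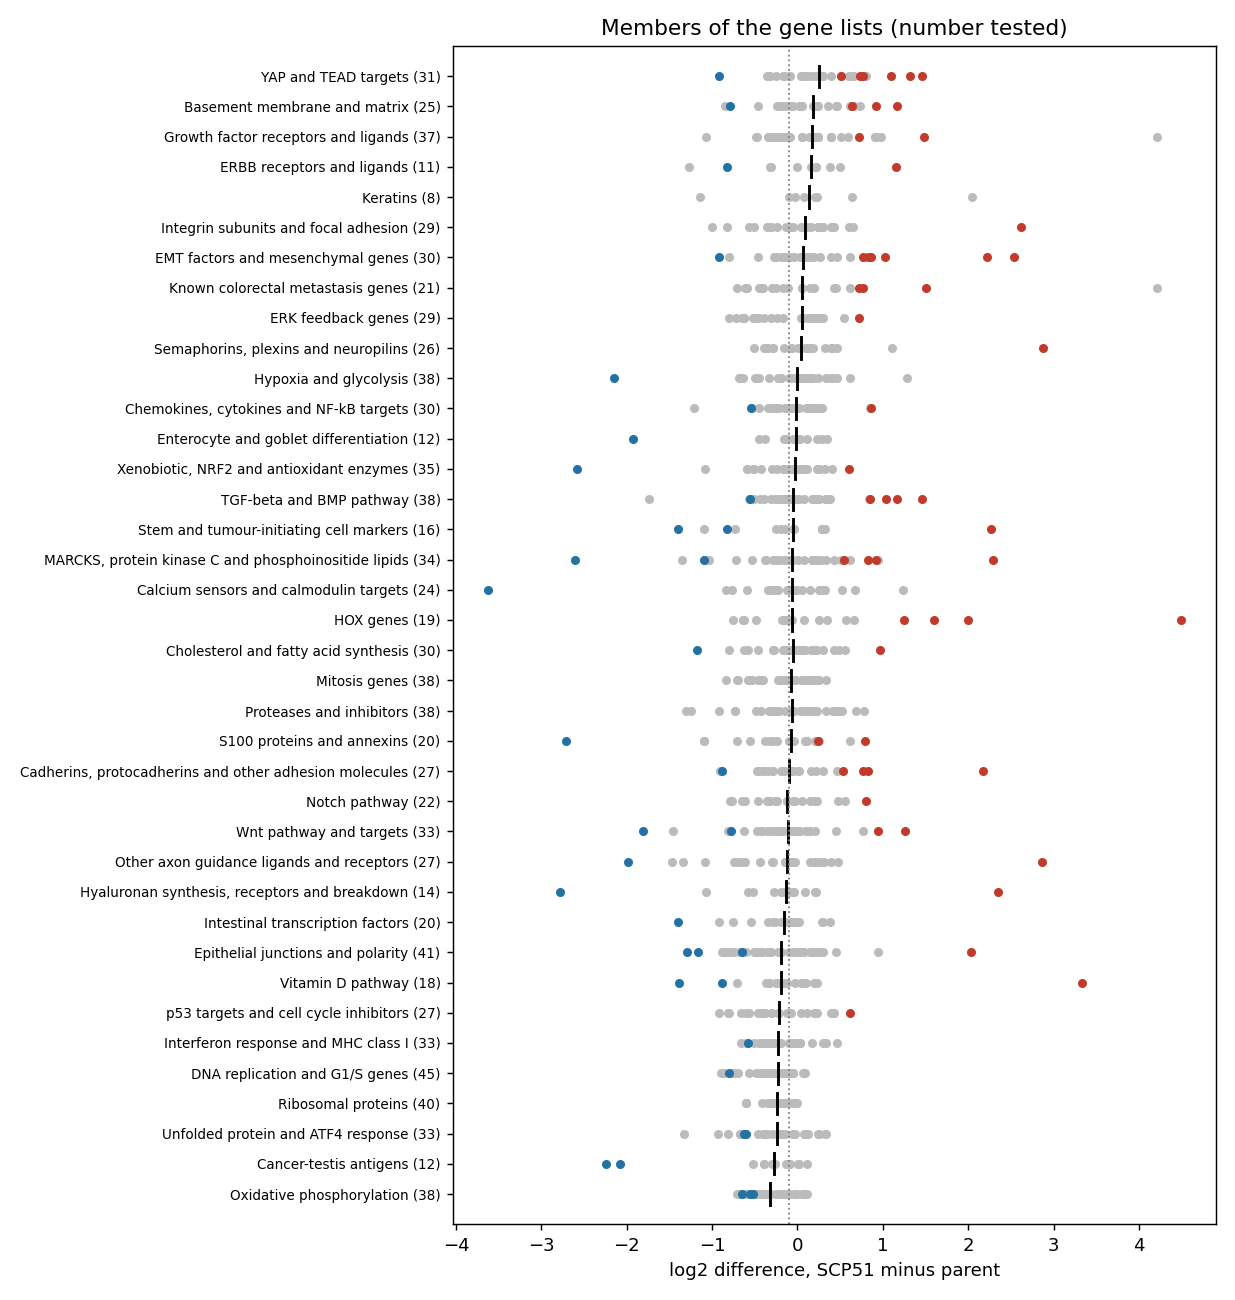
Log2 difference of SCP51 minus the parent for each tested member (points) of the gene lists, with the list median (bar) and the median of all genes (dotted line); members called higher are red, those called lower blue and the others grey. Most lists centre near the median of all genes, -0.10, and calls fall on single members.

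Along the genome the differences from the parent were uneven, and the most uneven chromosome was 8. Of the 215 genes called lower, 59 lie on it (27.4%), while it holds 472 of the genes tested (3.47%); 4 of its genes were called higher. The median difference of its genes was -0.26, and 0.00 in SCP58 minus the parent. The lower genes begin at TMEM68: from there to the end of the chromosome 57 of 282 genes were called lower (20.2%) and none higher, and 247 stood below 0. Before TMEM68 2 of 190 were called lower (1.05%) and 4 higher. These borders were set after the values were seen.

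Relative to the median of all genes of each array, the 282 genes from TMEM68 onward had a median of -0.48, -0.28 and -0.33 in SCP51 replicates 1 to 3. In the parent it was 0.02, -0.02 and 0.00, and in SCP58 -0.02, 0.01 and 0.05. All 3 SCP51 arrays were low in this region, most so replicate 1, the array that stood apart, and SCP58 lay with the parent. For the 190 genes before TMEM68 the SCP51 arrays stood at 0.04, 0.06 and 0.01.

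Within the region the running median over 25 measured neighbours was lowest in 3 stretches. They were cut out by that running median, so their own medians are low by choice. In the 13 genes from LYN to CHD7 the median was -0.90, with 9 below 0, 4 above it and 6 called lower. Among those 6 were LYN, a kinase of the Src family, at -1.37, and the chromatin remodeller CHD7, at -1.26. In the 72 genes from STAU2 to POP1 it was -0.56, with 65 below 0 and 17 called lower, among them CA2, ESRP1 and UQCRB. In the 66 genes from RNF19A to ASAP1 it was -0.57, with 63 below 0 and 14 called lower, among them GRHL2 and MAL2. MAL2, a protein of apical transport in epithelia, had signals of 757, 937 and 856 in SCP51, of 2353, 2304 and 2403 in the parent and of 2049, 2132 and 2376 in SCP58. It stood at -1.47 (adjusted p = 0.000357) with no overlap between SCP51 and either other group. PPP1R16A and COX6C, described above, also lie in the region.

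The opposite was seen at the start of chromosome X. Among its first 45 measured genes, up to AP1S2, 13 were called higher (28.9%) and none lower, with a median of 0.46, while of the 372 genes after AP1S2 2 were higher (0.538%) and 9 lower. On the same relative scale the 45 stood at 0.44, 0.58 and 0.62 in the SCP51 replicates, at -0.03, 0.00 and 0.01 in the parent and at -0.07, -0.06 and -0.09 in SCP58. AKAP17A, a splicing-associated protein, had signals of 651, 672 and 652 in SCP51 and of 302, 356 and 307 in the parent (1.04; adjusted p = 0.00315). PUDP, a phosphatase of pseudouridine monophosphate, had 793, 793 and 819 against 358, 377 and 377 (1.11; adjusted p = 0.00125). TRAPPC2, a subunit of a vesicle tethering complex, had 457, 563 and 515 against 233, 190 and 211 (1.28; adjusted p = 0.00343). MID1, a ubiquitin ligase, had 1013, 2024 and 1644 against 609, 489 and 555 (1.45; adjusted p = 0.0192; 0.0598 to 0.0856 without SCP51 replicate 2 or any parent array). In each of these 4 genes the SCP58 arrays lay at or near the parent level. The border at AP1S2 was set after the values were seen.

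**Figure D5:**
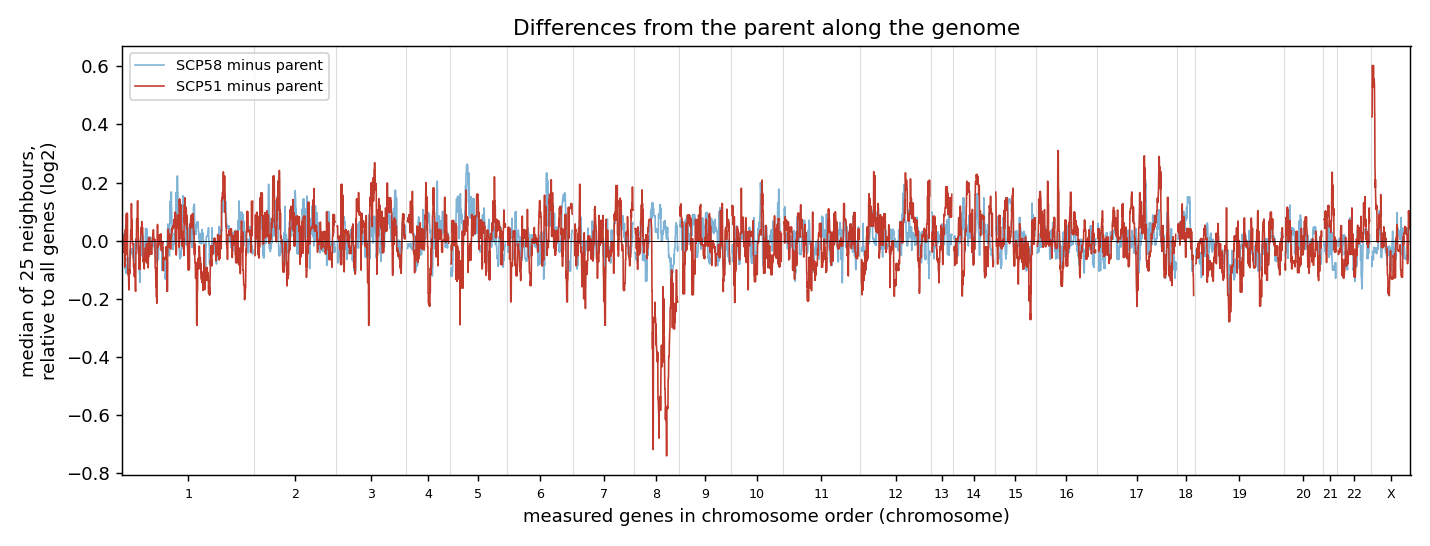
Running median of the log2 difference over 25 neighbouring measured genes, relative to the median of all genes (y), along the genes in chromosome order (x), for SCP51 minus the parent and SCP58 minus the parent. SCP51 dips over much of chromosome 8, to -0.74 at MAL2, and rises at the start of X, to 0.60 at PUDP.

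In 77 genes, 31 higher and 46 lower, the groups differed by at least 1.5 log2 units and the test was not passed. The arrays of both groups overlapped in 41 of them and did not in 36, KRT23 among the latter. KLRF1 had signals of 5888, 5512 and 5459 in SCP51 and of 14, 12.6 and 5805 in the parent, so that 1 parent array lay with SCP51 (5.80 log2 units; adjusted p = 0.169; 8.72 and 3.76e-08 without that array). With another single array left out the adjusted p of KLRF1 rose to as much as 0.383. NTRK2, the receptor of brain-derived neurotrophic factor, had 610, 6.05 and 629 in SCP51, 9.02, 6.25 and 6.53 in the parent and 5.3, 526 and 5.02 in SCP58 (adjusted p = 0.315). DNMT3B, a DNA methyltransferase, had 21.6, 165 and 148 against 315, 383 and 359 (-2.12; adjusted p = 0.138), with no overlap but a wide spread within SCP51. Without SCP51 replicate 1 it stood at -1.17 (adjusted p = 0.00968), and with another single array left out its adjusted p rose to as much as 0.321.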

How the data were processed

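The labels' protocols describe total RNA labelled with biotin by in vitro transcription, hybridised to Affymetrix arrays. The authors deposited 1 linear intensity for each of 54675 probe sets, from GCOS 1.4 according to the submitters' processing notes; its scaling target is not given in the sources used here, and no detection calls were used. From these values, 514 below 1 were set to 1 and log2 was taken. The 62 control probe sets were left out. Probe sets above the array median on at least 3 arrays were kept (29132), and each gene was represented by the one with the highest mean among those with 1 symbol. Symbols (GEO's platform annotation) were updated through Entrez identifiers in RefSeq (GRCh38.p14; 99.9% matched), which also gave chromosome order. limma 3.58.1 in R 4.3.3 fitted 1 mean per group to all 9 arrays, with an intensity trend and two-sided tests. A single gene tested by exact permutation of 3 against 3 arrays could not go below 0.1. The fit was tested on simulated data (10 sets of 13586 genes, 200 changed in SCP51): it called on average 62.7% of changes of 1 log2 unit and 90.7% of those of 2, and 6.0% of its calls were of unchanged genes. The simulated noise was independent between genes and equally wide on all arrays, whereas 1 real array, SCP51 replicate 1, stood apart. The simulated rates therefore need not hold for the real arrays. With 3 arrays a group, their number limits the precision.

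The 43 gene lists (1053 of 1436 symbols tested) and all other choices were made with earlier results of these data known. Named genes are the 15 largest called differences each way, the called list members of smallest p (at most 3 a list), and the 2 brightest of a list without calls; some of these are left out, and 1 list is not reported here. Named after their values were seen were ACVR1, CCN1, CCN2, CDH1, DNMT3B, EGFR, ESRP1, FSTL1, FZD3, KLRF1, KRT23, LOXL2, NT5E, NTRK2, PLCB4, PLCG2, PMEPA1, PRKCA, TEAD1, TWIST1, VIM, WWTR1, YAP1, ZEB1, HOXB6, the HOXB genes without a call and the genes given by chromosome. Alternatives changed the filter, the scaling, the value added before log2, the variance model, the gene summary, the arrays fitted, the threshold and the arrays left out. Figures were drawn with matplotlib 3.10.9.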

Additional observations from a re-analysis of the deposited data

Results flagged for a closer look

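Probe sets that the annotation gives no single gene symbol were outside the comparison of genes. When each of the 29132 probe sets was tested by itself, 553 were called, of which 73 lacked a single symbol, 36 higher and 37 lower in SCP51. They are given by identifier only. The largest fall was in 216471_x_at, with signals of 15.9, 10.7 and 19.1 in SCP51 and of 446, 448 and 374 in the parent (limma adjusted p = 9.34e-05), and SCP58 stood at 15.6, 17.2 and 10. Also far lower were 215881_x_at, at 19.8, 17.1 and 17.3 against 257, 291 and 218, and 210497_x_at, at 31, 27.3 and 40.9 against 332, 345 and 318. The largest rise was in 234640_x_at, with signals of 670, 542 and 101 against 13.7, 15.9 and 15.4 (adjusted p = 0.01), while SCP58 stood at 15.4, 15.5 and 15.5. Next came 222088_s_at, at 346, 410 and 309 against 32.4, 79.5 and 29.3.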

How the results depend on the processing

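Against 402 calls (187 higher, 215 lower), array weights gave 1356 (580 and 776), only the 6 arrays compared 151 (83 and 68), the limit of 2-fold 164 (86 and 78) and an adjusted p under 0.01 102 (57 and 45). A block for the replicate number gave 167 calls (88 and 79), of which 164 were among the 402. The labels do not say whether the numbers pair the arrays. Deviations of same-numbered SCP51 and parent arrays correlated at -0.071, -0.002 and -0.056, and those of differently numbered arrays at -0.125 to 0.121. So few values cannot decide whether same-numbered arrays share a batch, and SCP58 was not checked. Leaving out 1 array at a time gave 122 to 726 calls, 70 to 341 higher and 49 to 385 lower. Of 104 called genes that were chosen for naming, 39 kept the call in each of up to 19 alternatives and 65 lost it in at least 1, with no change of direction; 54 lost it without parent replicate 3, 42 with the block, and 34 when the probe sets of a gene were averaged. Of 36 such genes without a call, 11 changed sign in at least 1 alternative. Some alternatives took another probe set of a gene or dropped it; for those, values with the probe set held were added after seeing the data. Of the list medians, 810 moved by less than the spread between the SCP51 arrays and 50 by more. Dim signals limit the size of the largest differences, since with 32 added before log2 they shrank as given above. The causes were not tested.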
